A study of Mus musculus with 4 samples.

Results

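The antioxidant enzymes described here are 10 genes chosen by name, Sod1, Sod2, Cat, Gpx1, Gpx3, Gpx4, Prdx1, Prdx2, Txnrd1 and Hmox1, out of 20284 named genes on the array. All 10 were found, on 13 probes. The study sorted 4 fractions of marrow cells from female C57BL6 mice aged 8 weeks and put each on 1 one-colour Agilent array. The fractions were long-term hematopoietic stem cells (LT-HSC, CD34- ckit+ Sca1+ Lineage-), short-term stem cells (ST-HSC, CD34+ ckit+ Sca1+ Lineage-), progenitors and differentiated cells (Lin+, sorted as Lineage+). The progenitor gate is written in different ways in the labels: as ckit+ Lineage- for the sample, and with Sca1- and a mention of Lineage+ cells in the shared sorting text, so whether Sca1+ cells were kept in it is not settled. All fractions share strain, age and sex, no genetic change or treatment is given, and how many mice were pooled is not stated. Lin+ is a mixture of all lineage-marked marrow cells.

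Antioxidant enzymes work as a relay. Superoxide dismutases turn superoxide into hydrogen peroxide, which catalase, glutathione peroxidases and peroxiredoxins then break down. Peroxiredoxins are restored by thioredoxin, which thioredoxin reductase keeps reduced, while heme oxygenase degrades free heme, an oxidant source in tissue that makes and destroys red cells. Hematopoietic stem cells are known for low levels of reactive oxygen, and red cells for large stores of catalase, glutathione peroxidase and peroxiredoxin.

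Levels are given as the log2 of the background-corrected intensity minus the log2 of the 75th percentile of that array, so 0 is the 75th percentile itself. They compare 1 probe across fractions, not one gene with another. The ± value is the error of single spots that the scanner software estimates, carried through to differences. With 1 array per fraction there was no replicate, so no test and no p-value could be given, and a difference between fractions includes any difference between these particular samples. A gene was called higher or lower at a 2-fold difference with at least 1 side well above background, and a side that was not gave only a bound. Between 40.9% and 45.9% of the probes were well above background on each array. The 75th percentile was 191.5 intensity units for LT-HSC, 217.5 for ST-HSC, 137.5 for progenitors and 230.4 for Lin+, so the choice of scaling weighs on every comparison with progenitors. The sorting genes followed the gates for Kit, at 5.63 in LT-HSC, 4.42 in progenitors and 1.67 in Lin+, and for Cd34, which was 1.19 ± 0.20 higher in ST-HSC than in LT-HSC. Cd34 transcript was nonetheless at 7.34 in LT-HSC, the CD34- fraction, and Ly6a, which encodes Sca1, was 2.23 ± 0.20 higher in Lin+ than in progenitors.

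The 10 genes divided by the fraction where each was highest. Gpx1, Gpx3, Prdx2 and Hmox1 were highest in Lin+, and Sod1, Sod2, Gpx4 and Prdx1 were highest in progenitors. Cat was highest in LT-HSC and Txnrd1 in ST-HSC, both within 2 spot errors of the next fraction. Their leads were 0.12 ± 0.20 over Lin+ and 0.06 ± 0.20 over progenitors. A second, dimmer Cat probe was highest in Lin+. The place of progenitors depends on the scaling: with spike-in scaling or quantile normalization Prdx1 was no longer higher in progenitors than in ST-HSC, and Gpx4 differed by -0.02 between Lin+ and progenitors. The levels of 8 of the 10 genes spanned at least 2-fold over the 4 fractions, and those of Cat and Gpx4 spanned less. Gpx3 in ST-HSC was the one case among the brightest probes of the 10 genes that was not well above background.

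**Figure D1:**
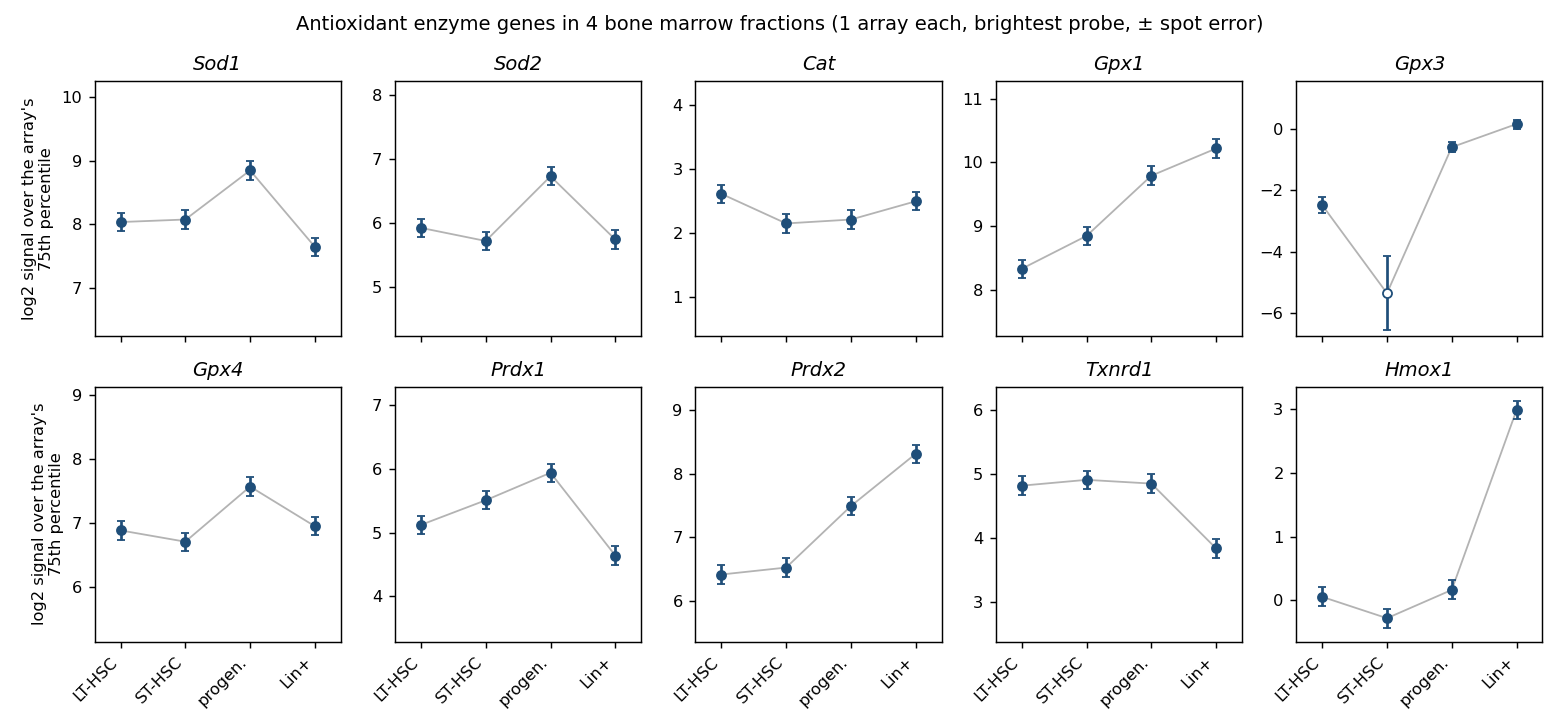
Level of each antioxidant enzyme gene (brightest probe) in LT-HSC, ST-HSC, progenitors and Lin+, as log2 intensity relative to the 75th percentile of the array, with bars for the spot error and open points for values not well above background. Each point is 1 array. Hmox1 stayed between -0.28 and 0.16 in the 3 lineage-negative fractions and stood at 2.98 in Lin+, while Gpx1 increased along the order of fractions to 10.22 in Lin+.

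The 250 bases before the transcription start of 6 of these genes are shown, chosen by their calls in different comparisons. Prdx1, Sod1 and Txnrd1 were called lower in Lin+ than in progenitors, calls that were lost with the median gene at 0. Gpx1, Gpx3 and Prdx2 were called higher in Lin+ than in LT-HSC. The sequences are RefSeq's for the mouse build GRCm38.p6, 5′ to 3′ on the strand of the gene, with capitals marking the core of the antioxidant response element, which binds the stress factor NRF2, and a GATA motif. The letters searched were TGACNNNGC and GATAA, on both strands.
Prdx1, chr4:116685349-116685598, strand +: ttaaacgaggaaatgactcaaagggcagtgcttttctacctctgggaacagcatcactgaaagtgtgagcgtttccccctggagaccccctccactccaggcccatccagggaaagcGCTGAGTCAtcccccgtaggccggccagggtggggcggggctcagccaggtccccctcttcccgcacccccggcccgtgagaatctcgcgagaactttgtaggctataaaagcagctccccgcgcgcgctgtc
Sod1, chr16:90220512-90220761, strand +: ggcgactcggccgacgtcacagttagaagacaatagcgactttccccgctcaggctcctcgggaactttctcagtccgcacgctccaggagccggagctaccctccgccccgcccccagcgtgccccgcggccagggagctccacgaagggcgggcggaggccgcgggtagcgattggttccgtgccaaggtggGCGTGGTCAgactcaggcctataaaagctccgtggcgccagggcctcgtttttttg
Txnrd1, chr10:82858956-82859205, strand +: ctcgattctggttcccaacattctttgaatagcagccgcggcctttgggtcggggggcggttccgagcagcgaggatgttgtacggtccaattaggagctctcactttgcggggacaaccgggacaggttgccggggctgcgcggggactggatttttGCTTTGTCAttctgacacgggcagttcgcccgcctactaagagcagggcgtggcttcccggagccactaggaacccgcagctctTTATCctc
Gpx1, chr9:108338830-108339079, strand +: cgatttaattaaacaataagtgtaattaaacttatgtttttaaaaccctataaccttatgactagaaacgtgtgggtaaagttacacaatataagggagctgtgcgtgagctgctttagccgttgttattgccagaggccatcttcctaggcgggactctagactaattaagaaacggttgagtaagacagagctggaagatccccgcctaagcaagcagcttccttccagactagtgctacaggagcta
Gpx3, chr11:54902604-54902853, strand +: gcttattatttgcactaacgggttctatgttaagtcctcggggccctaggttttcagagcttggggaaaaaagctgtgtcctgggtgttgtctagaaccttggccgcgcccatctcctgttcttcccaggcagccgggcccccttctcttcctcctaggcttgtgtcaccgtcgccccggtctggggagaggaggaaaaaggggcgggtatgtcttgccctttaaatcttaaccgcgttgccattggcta
Prdx2, chr8:84969372-84969621, strand +: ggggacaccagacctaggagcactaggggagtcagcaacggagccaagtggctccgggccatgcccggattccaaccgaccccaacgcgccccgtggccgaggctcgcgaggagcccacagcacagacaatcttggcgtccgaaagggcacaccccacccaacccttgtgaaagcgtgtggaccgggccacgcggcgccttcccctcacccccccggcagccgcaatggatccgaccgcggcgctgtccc
The antioxidant response core was found in 3 of the 9 genes that had an entry, Prdx1, Sod1 and Txnrd1, and in 3 of their 14 windows, against 10.2% of all 32851 windows. It read GCTGAGTCA in Prdx1, 133 to 125 bases before the start, GCGTGGTCA in Sod1, at 56 to 48 bases, and GCTTTGTCA in 1 window of Txnrd1, at 92 to 84 bases, each on the opposite strand. Txnrd1 had other windows without either motif, and the window shown is the one with the matches. GATAA was found in windows of Gpx4 and Txnrd1, against 22.6% of all windows. Hmox1 had no entry. Sod2 and Gpx4, not shown, were also lower in Lin+ than in progenitors, by -0.99 and -0.62, short of the call. Neither had the response core in its windows. The grouping of the 3 genes with the response core was noticed after their values were seen, and a match of these letters is a description of the sequence, not a site shown to be bound.

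Superoxide dismutases were highest in progenitors. Sod1, the copper-zinc enzyme of the cytosol, was at 8.04 in LT-HSC and 8.08 in ST-HSC, with 8.85 in progenitors and 7.65 in Lin+. Its progenitor level stood above the other fractions, and neither ST-HSC and LT-HSC nor LT-HSC and Lin+ differed by more than 2 spot errors. Sod2, the manganese enzyme of mitochondria, was at 5.92, 5.72, 6.73 and 5.74 in the same order. Its progenitor level was again apart, 0.81 ± 0.20 above that of LT-HSC, and the other 3 fractions lay within 2 spot errors from neighbour to neighbour. With spike-in scaling, progenitors minus ST-HSC was only 0.15 for Sod1 and 0.39 for Sod2, within 2 spot errors. Cat, which breaks hydrogen peroxide down to water and oxygen, was at 2.61, 2.15, 2.21 and 2.49 on its brighter probe, a span of 1.38-fold. Ranked by level, no neighbouring fractions differed by more than 2 spot errors, though ST-HSC minus LT-HSC was -0.46 ± 0.20. The dimmer Cat probe, aimed at the same transcript, read -0.80, -0.91, -1.23 and 0.40, and so placed Lin+ above the other fractions. The probes of Cat therefore disagreed on Lin+: against LT-HSC the brighter one gave -0.12 ± 0.20 and the dimmer one 1.21 ± 0.22.

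Glutathione peroxidases, which use glutathione to reduce peroxides, had 3 different profiles. Gpx1, the main enzyme of the cytosol, was at 8.33 in LT-HSC and 8.85 in ST-HSC, with 9.79 in progenitors and 10.22 in Lin+. Each step along that order exceeded 2 spot errors. Gpx3, the secreted enzyme of plasma, was at -2.48 ± 0.27 in LT-HSC, -5.35 in ST-HSC, where it was not well above background, -0.59 in progenitors and 0.16 in Lin+. Its order was Lin+, progenitors, LT-HSC and ST-HSC, and its LT-HSC level came from an intensity of only 34.3 units. Gpx4, which reduces lipid peroxides within membranes, was at 6.88, 6.70, 7.57 and 6.94 in the order LT-HSC to Lin+, with progenitors apart from the other fractions and those within 2 spot errors of their neighbours. The gap of Gpx4 between Lin+ and progenitors, -0.62, shrank to -0.20 with the median gene at 0, -0.09 span-corrected and -0.02 with either spike-in scaling or quantile normalization. Gpx1, Gpx3, Gpx4 and Txnrd1 encode selenoproteins, and these 4 did not move as one: in Lin+ against LT-HSC, Gpx1 and Gpx3 were over 2-fold higher, Gpx4 differed by 0.06 ± 0.20 and Txnrd1 by -0.98 ± 0.20.

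The peroxiredoxin and thioredoxin genes parted in Lin+. Prdx1, a peroxiredoxin induced by oxidative stress, was at 5.12 in LT-HSC and 5.51 in ST-HSC, with 5.94 in progenitors and 4.64 in Lin+. Its dimmer probe read 1.26, 1.48, 1.70 and 0.31, the same order of fractions. Prdx2, the peroxiredoxin abundant in red cells, was at 6.42, 6.53, 7.49 and 8.31 in the order LT-HSC to Lin+. Its stem cell fractions differed by less than 2 spot errors, and progenitors and Lin+ stood successively above them. Txnrd1, the thioredoxin reductase of the cytosol, was at 4.82, 4.91, 4.85 and 3.84, within 2 spot errors over the 3 lineage-negative fractions and lower in Lin+. That levelness depends on the scaling, since progenitors minus ST-HSC was -0.68 with spike-in scaling and -0.48 with quantile normalization.

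Hmox1, the inducible heme oxygenase, was at 0.05 in LT-HSC and -0.28 in ST-HSC, with 0.16 in progenitors and 2.98 in Lin+. Ranked by level, neighbours among the 3 lineage-negative fractions differed by less than 2 spot errors, though progenitors exceeded ST-HSC by 0.44 ± 0.21. Lin+ stood apart. The dimmer Hmox1 probe was not well above background in LT-HSC or ST-HSC and read -2.11 in progenitors and -0.84 in Lin+, again with Lin+ as the high fraction. Its difference between Lin+ and progenitors was 1.27 ± 0.29, smaller than that of the brighter probe.

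**Figure D2:**
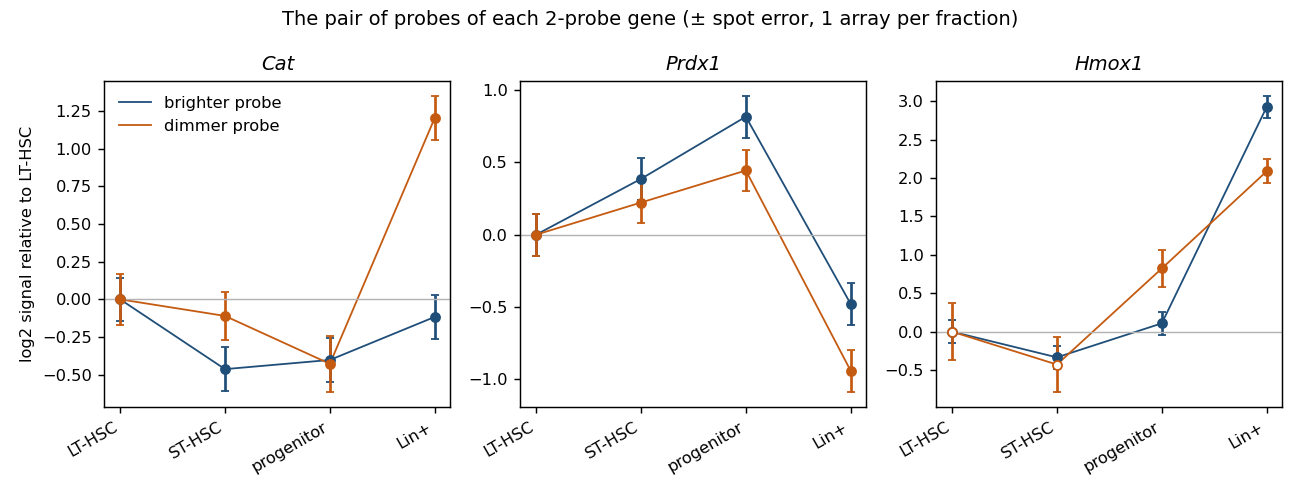
All probes of the 3 genes that had 2 probes, Cat, Prdx1 and Hmox1, by fraction, as scaled log2 intensity relative to the same probe in LT-HSC. Bars are spot errors and open points are values not well above background. The probes of Prdx1 run in parallel and those of Hmox1 both peak in Lin+. Those of Cat part in Lin+, at -0.12 for the brighter probe and 1.21 for the dimmer one.

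The first comparison, ST-HSC against LT-HSC, asks what differs where CD34 marks the passage out of the long-term compartment. None of the 10 antioxidant genes was called, while 14.8% of the 12621 genes compared were, 5.81% as higher and 9.01% as lower. The median difference of the 10 genes was -0.07, against 0.02 over all genes. Gpx1 was higher in ST-HSC by 0.52 ± 0.20 and Cat lower by 0.46 ± 0.20, and these were the only 2 differences above 2 spot errors among the measured ones. Gpx3 in ST-HSC lay at least 1.88-fold below its LT-HSC level, a bound short of the 2-fold call. The 10 cell division genes set beside them, among them Mki67 and Cenpe, included 9 called higher in ST-HSC, and megakaryocyte markers were called lower in 9 of 9 compared, with summed scaled signals of 26.2 in ST-HSC and 210 in LT-HSC. Their part in the differences of Gpx1, Cat and Gpx3 was not tested.

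Progenitors against ST-HSC is the step to committed cells. Here 9 of the 10 genes were higher in progenitors, 8 of them by more than 2 spot errors, but only Gpx3 and Sod2 passed 2-fold. That is 2 genes called higher and 0 lower, where 20.2% of the 12614 genes compared were called, 10.0% as higher and 10.2% as lower. The median difference of the 10 genes was 0.82, against 0.17 over all genes. Cat had the smallest rise of the 9, and 55.5% of the genes compared reached or passed it. Prdx1 had the smallest of the 8, and 35.2% reached or passed that. Gpx3 was at -0.59 in progenitors and not well above background in ST-HSC, so it was at least 6.94-fold higher. With normexp background correction the Gpx3 difference was 1.57, against the bound of 2.80, and with a filter on both arrays Gpx3 had no value. Sod2 was higher by 1.01 ± 0.20, and Prdx2, Gpx1, Gpx4 and Sod1 were higher by 0.96, 0.94, 0.86 and 0.77, each ± 0.20. Hmox1 and Prdx1 were higher by 0.44 ± 0.21 and 0.43 ± 0.20, whereas Cat and Txnrd1 differed by 0.06 and -0.06. Part of this height is a matter of scaling: with the median gene set to 0, 6 genes remained above 2 spot errors and Sod2 was at 0.81, short of the call. With spike-in scaling Prdx1 and Hmox1 turned to -0.19 and -0.18, Cat to -0.56 and Txnrd1 to -0.68, and with quantile normalization Prdx1 was at -0.04 and Txnrd1 at -0.48. Sod1, Sod2, Gpx1, Gpx4 and Prdx2 stayed above 0 in all 11 alternative settings, and Gpx3 in those that gave it a value. With spike-in scaling, however, Sod1, Sod2, Gpx1, Gpx4 and Prdx2 were at 0.15, 0.39, 0.32, 0.24 and 0.34, all within 2 spot errors. So were Sod1 and Gpx4 with quantile normalization, at 0.25 and 0.29, and Sod1 span-corrected, at 0.35. Before scaling the Sod2 intensities were 14606 in progenitors and 11440 in ST-HSC. Erythroid markers were called higher in 12 of 15 compared, with summed scaled signals of 448 in progenitors and 75.8 in ST-HSC, and neutrophil markers in 11 of 13. Megakaryocyte markers were called higher in 8 of 9, with sums of 306 in progenitors and 26.2 in ST-HSC, basophil, mast cell and eosinophil markers in 7 of 9, and monocyte and macrophage markers in 5 of 10, while cell division genes were called lower in 5 of 10. Their part in the antioxidant differences was not tested.

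Lin+ against progenitors is the step to differentiated cells. Hmox1 was higher in Lin+ by 2.82 ± 0.21, or 7.06-fold, a difference that 3.64% of all genes compared reached or passed. Prdx1, Sod1 and Txnrd1 were lower, by -1.30, -1.20 and -1.02, each ± 0.20. These made 1 gene called higher and 3 lower, where 40.9% of the 12990 genes compared were called, 14.5% as higher and 26.4% as lower. The median of the 10 genes was -0.17, against -0.33 over all genes. Prdx2, Gpx3 and Gpx1 were higher by 0.82 ± 0.20, 0.75 ± 0.21 and 0.43 ± 0.20, below the 2-fold line, and Sod2 and Gpx4 lower by -0.99 and -0.62, each ± 0.20. The lower calls rest on the scaling. With the median gene set to 0, Prdx1, Sod1 and Txnrd1 were at -0.88, -0.78 and -0.60, none called, while Gpx3 and Prdx2 joined Hmox1 at 1.17 and 1.24.

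**Figure D3:**
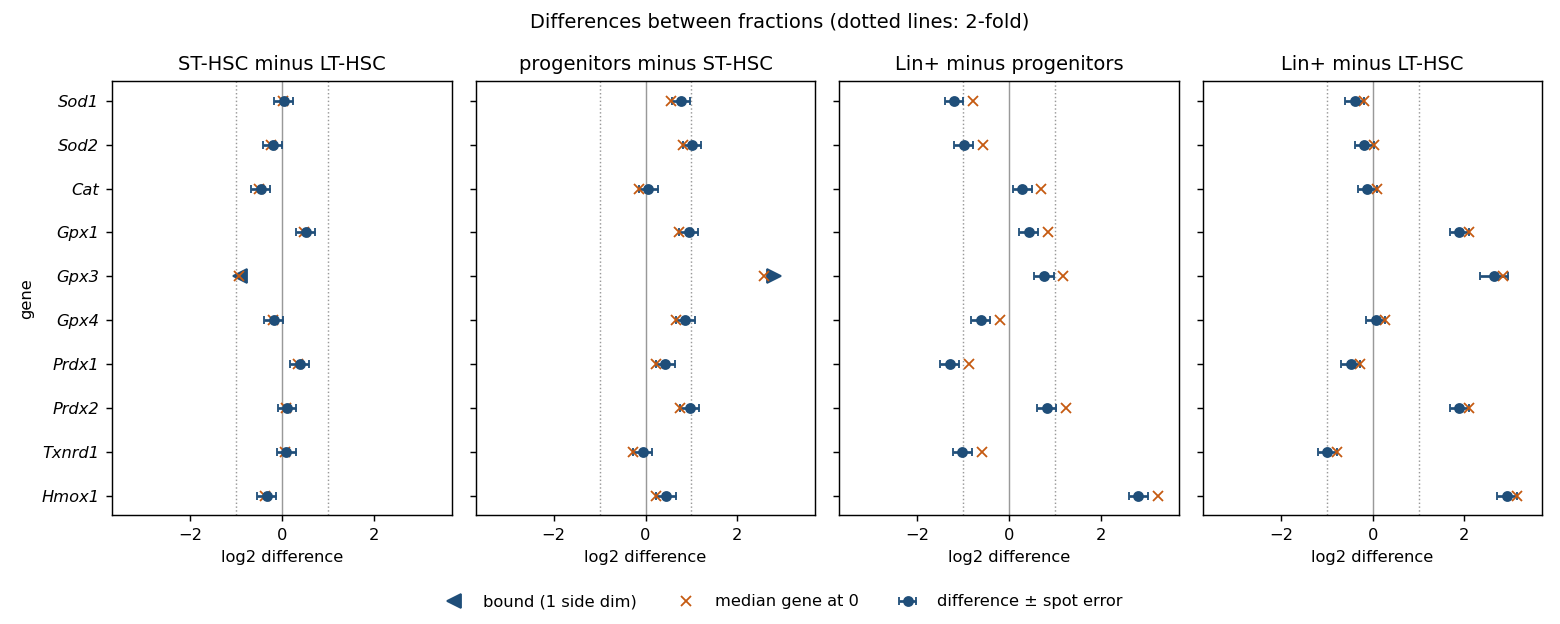
Difference of each antioxidant enzyme gene in the 4 comparisons, in log2 units with spot errors, with arrowhead markers for bounds, pointing the way the true value may lie, and dashed lines at 2-fold. In Lin+ minus LT-HSC, Gpx1, Gpx3, Prdx2 and Hmox1 lie beyond the upper line and no gene lies beyond the lower one.

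Lin+ against LT-HSC compares the ends of the series. Gpx1, Gpx3, Prdx2 and Hmox1 were higher in Lin+ and none of the 10 was called lower, where 39.4% of the 13285 genes compared were called, 16.1% as higher and 23.2% as lower. Hmox1 was 7.61-fold higher, a difference of 2.93 ± 0.21, and Gpx3 was 6.24-fold higher, 2.64 ± 0.30. Prdx2 and Gpx1 were 3.71-fold and 3.69-fold higher, each at 1.89 ± 0.20. Differences as high or higher were found for 4.40% of the compared genes beside Hmox1, 5.19% beside Gpx3, 8.16% beside Prdx2 and 8.20% beside Gpx1. The median of the 10 genes, -0.03 against -0.15 over all genes, hides this split. Txnrd1 and Prdx1 were lower by -0.98 and -0.48, each ± 0.20, and Sod1, Sod2, Cat and Gpx4 lay between -0.39 and 0.06. The 4 higher calls stood in all 11 alternative settings, with ranges of 2.51 to 3.22 for Hmox1, 1.51 to 2.93 for Gpx3, 1.64 to 2.18 for Prdx2 and 1.63 to 2.31 for Gpx1.

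Lin+ also differed in which cell markers it held. In Lin+ against progenitors, erythroid markers were called higher in 12 of 16 and lower in 1, neutrophil markers in 10 of 14 and 4, and monocyte and macrophage markers in 8 of 11 and 0. The macrophage complement genes C1qa and C1qc were well above background in Lin+ alone, and C1qb in Lin+, LT-HSC and ST-HSC. Erythroid markers were called higher in 15 of 16 in Lin+ against LT-HSC, with summed scaled signals of 10716 in Lin+, 448 in progenitors, 75.8 in ST-HSC and 172 in LT-HSC. Such sums weigh the brightest probes most. In LT-HSC 9 of the 16 were well above background, among them Car2 at 6.64 and Hbb-bt at 5.64, and Hbb-bs, Alas2 and Slc4a1 were among those that were not. Neutrophil markers were called higher in 14 of 14, with sums of 9784 in Lin+ and 130 in LT-HSC. Monocyte and macrophage markers were called higher in 10 of 11, with sums of 285 in Lin+ and 13.5 in LT-HSC, and Cd163 and Mertk were not well above background in Lin+. B cell markers were called higher in 10 of 10, with sums of 425 in Lin+ and 19.1 in LT-HSC, T and NK cell markers in 7 of 10 and basophil, mast cell and eosinophil markers in 8 of 9. Markers of long-term stem cells were called lower in 10 of 10. Megakaryocyte markers were called lower in 9 of 9 in Lin+ against both progenitors and LT-HSC, with sums of 11 in Lin+, 306 in progenitors and 210 in LT-HSC. Cell division genes were called higher in 9 of 10 in Lin+ against LT-HSC and in 6 of 10 in Lin+ against progenitors. The part of these markers in the Prdx1, Sod1, Txnrd1, Hmox1, Gpx3, Prdx2 and Gpx1 differences was not tested, and in such bulk samples fewer cells of a type and less RNA per cell cannot be told apart.

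The genes that supply and share the work of these enzymes were followed through 92 further genes in 8 lists, of which 91 were on the array and Nnt was not. In ST-HSC against LT-HSC, 0 of the 83 compared were called higher and 13 lower, or 15.7% lower beside 9.01% of all genes. In progenitors against ST-HSC 21 of 83 were called higher and 6 lower, 25.3% and 7.23%, beside 10.0% and 10.2% of all genes. In Lin+ against progenitors 12 of 84 were called higher and 23 lower, 14.3% and 27.4%, beside 14.5% and 26.4% of all genes. In Lin+ against LT-HSC 20 of 85 were called higher and 20 lower, 23.5% each, beside 16.1% and 23.2% of all genes. With the median gene at 0 the counts were 23 higher and 12 lower in Lin+ against progenitors, which turns the balance round, 27 and 18 in Lin+ against LT-HSC, and 16 and 8 in progenitors against ST-HSC. The counts of single lists below are to be read beside the shares of all genes given here.

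**Figure D4:**
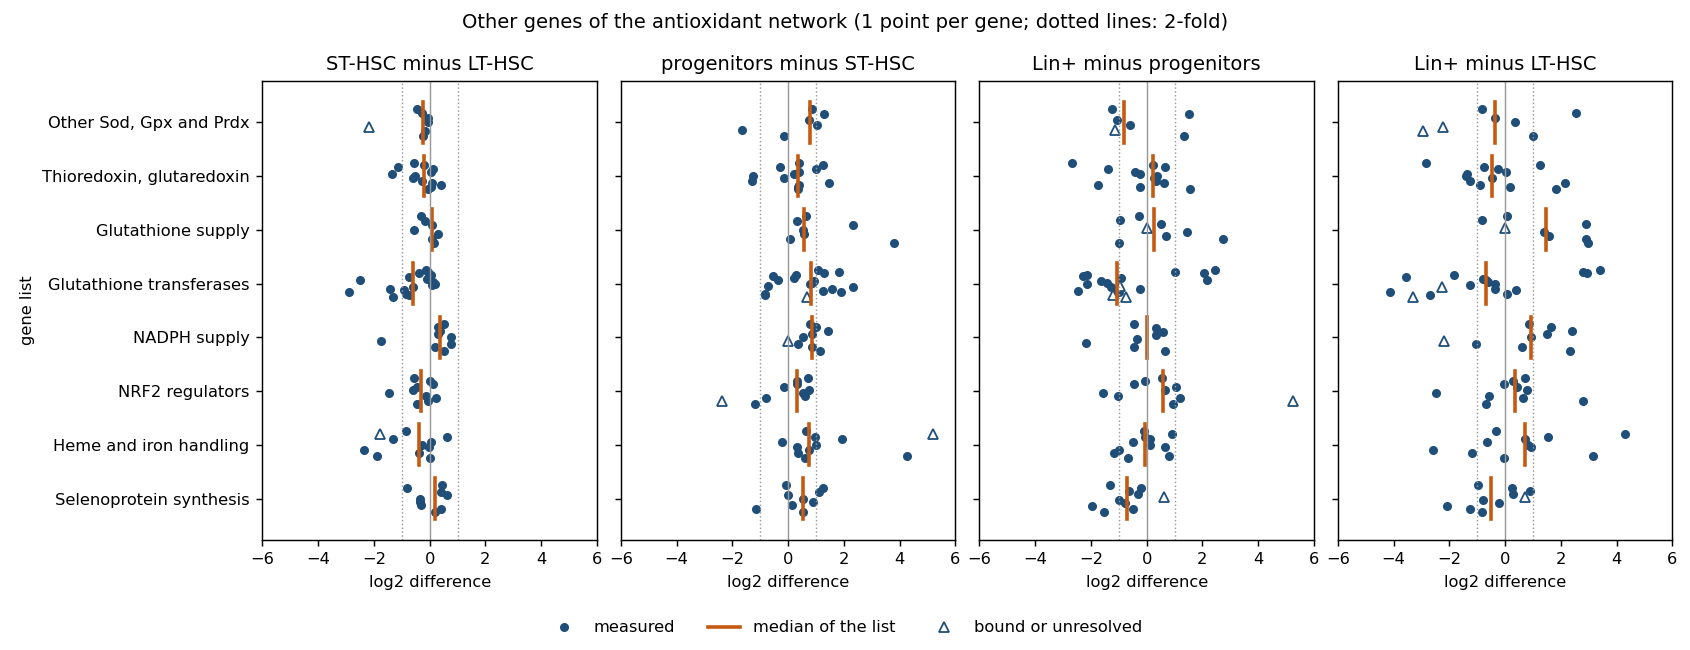
Differences of the 8 lists of related genes in the 4 comparisons, in log2 units, with 1 point per gene and a line at each list's median. In Lin+ minus LT-HSC the glutathione synthesis, recycling and transport list had the median 1.48, and the other peroxidase, dismutase and peroxiredoxin genes had the median -0.35.

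Among the closest relatives of the 10 genes, Prdx5, a peroxiredoxin of mitochondria and peroxisomes, was at 4.81, 4.54, 5.82 and 7.35 in the order LT-HSC to Lin+, and was called higher in progenitors than in ST-HSC (1.28 ± 0.20) and in Lin+ than in progenitors (1.52 ± 0.20). Prdx6, which uses glutathione, was at 7.81, 7.37, 8.22 and 6.99, and lower in Lin+ than in progenitors by -1.24 ± 0.20, as Prdx1 was. Neither Prdx6 nor Prdx1 was called there with the median gene at 0. Gpx7, a peroxidase of the endoplasmic reticulum, was at least 7.76-fold lower in Lin+ than in LT-HSC, and Gpx8 at least 4.73-fold lower. Sod3, Gpx5 and Gpx6 were not well above background in any fraction. The list had 1 of 7 called higher and 2 lower in Lin+ against LT-HSC.

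Of the thioredoxin and glutaredoxin genes, 3 of 13 were called higher and 4 lower in Lin+ against LT-HSC. Txnrd3, another thioredoxin reductase, was lower by -2.84 ± 0.21, Sesn3 by -1.40 ± 0.21, and the glutaredoxins Glrx5, of mitochondrial iron-sulfur clusters, and Glrx were higher by 2.15 and 1.84, each ± 0.20. The reductase gene Txnrd2 went the other way from Txnrd1 and Txnrd3, at 4.39 in LT-HSC and 5.64 in Lin+. Txn1, the cytosolic thioredoxin that Txnrd1 reduces, differed by 0.02 ± 0.20, beside -0.98 for Txnrd1. In ST-HSC against LT-HSC, Srxn1, which repairs overoxidised peroxiredoxin, was lower by -1.35 ± 0.20 and Txnip, a thioredoxin inhibitor, by -1.13 ± 0.20, where none of the 10 genes was called.

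Genes for glutathione supply had the list median furthest above 0 in Lin+ against LT-HSC, with 5 of 8 called higher and 0 lower and a median of 1.48 against -0.15 over all genes. Gsr, which recycles oxidised glutathione, was at 4.73 in LT-HSC and 4.82 in ST-HSC, with 7.13 in progenitors and 7.64 in Lin+, so most of its 2.91 ± 0.20 difference lay at the progenitor step, where it was 2.31 ± 0.20. Gclc, the catalytic subunit of the first step of synthesis, was higher by 1.57 ± 0.20. Chac1 and Chac2, which break glutathione down, were higher by 2.98 ± 0.25 and 2.91 ± 0.22, so the list did not move in one role only. NADPH, which Gsr and thioredoxin reductases consume, is made by enzymes of which 4 of 9 were called higher and 2 lower, among them Pgd at 2.40 and G6pdx at 2.32, each ± 0.20, while Me1 was at least 4.53-fold lower.

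Glutathione transferases, which attach glutathione to toxic compounds, had 3 of 17 called higher and 7 lower in Lin+ against LT-HSC. Gstm2 was lower by -4.13 ± 0.26, Gstt3 by -3.54 ± 0.21 and Gsta4 at least 9.98-fold, while Mgst3, a membrane-bound member, was higher by 3.41 ± 0.20. Progenitors against ST-HSC ran the other way, with 7 of 18 called higher and 0 lower, beside 10.0% and 10.2% of all genes. Gstm5 was at 2.32 and Gstm1 at 1.89, each ± 0.20. With the median gene at 0 the counts were 6 higher and 2 lower. Members of the Gstm and Gstp families are close in sequence, so their probes may share signal.

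The heme and iron list also holds the quinone and carbonyl reductase genes Nqo1, Nqo2, Cbr1 and Cbr3. In Lin+ against LT-HSC, 3 of its 11 genes were called higher and 2 lower. The 2 lower ones were Cbr3, at 1.68 in LT-HSC and -0.92 in Lin+, and Cbr1, at 3.96 and 2.78. Nqo2 was among the higher ones, at 2.19 in LT-HSC and 3.72 in Lin+. Slc40a1, the iron exporter ferroportin, was higher by 4.30 ± 0.26 and Blvrb, a biliverdin reductase, by 3.15 ± 0.20. Both were already high in progenitors, at 1.80 and 5.84, where Hmox1 was not. Hmox2, the constitutive heme oxygenase, was at 4.29, 4.34, 4.12 and 3.65 in the order LT-HSC to Lin+, and lower in Lin+ than in LT-HSC by -0.65 ± 0.20, opposite in sign to Hmox1. Ferritin chains Fth1 and Ftl1 were higher by 0.93 and 0.81, each ± 0.20, below the call.

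The regulators of the response varied among themselves, and 8 of the 10 spanned at least 2-fold over the fractions. Nfe2l2, which encodes NRF2, was at 3.66, 3.68, 3.98 and 3.92 in the order LT-HSC to Lin+, and spanned less. In Lin+ against LT-HSC 1 of the 10 regulators was called higher and 1 lower, and in Lin+ against progenitors 3 were called higher and 2 lower (5 and 1 with the median gene at 0). The regulator called higher in Lin+ than in LT-HSC was Bach2, by 2.81 ± 0.21. It is a repressor that shares NRF2 binding sites and is known for its part in B cells. The regulator called lower in Lin+ than in LT-HSC was Maff, a small MAF partner, by -2.49 ± 0.20. Bach1, the repressor best known for Hmox1, was at 2.55, 2.10, 0.92 and 1.87, and called lower in progenitors than in ST-HSC by -1.18 ± 0.21, a comparison in which Hmox1 differed by 0.44 ± 0.21. Gpx1, Gpx3, Gpx4 and Txnrd1 need the genes for selenoprotein synthesis. Of the 10 genes listed under that heading, 0 were called higher and 2 lower in Lin+ against LT-HSC, beside 16.1% and 23.2% of all genes. The lower ones were Pstk, by -2.10 ± 0.20, and Lrp8, by -1.25 ± 0.37. With the median gene at 0 the counts were 1 higher and 2 lower.

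For the 8 genes that spanned at least 2-fold, leaving out Cat and Gpx4, the most similar profiles were sought among 10623 genes well above background on all 4 arrays, by the Euclidean distance between log2 levels each centred on its own mean over the 4 fractions. With 4 values per gene, close profiles are frequent. Hmox1 lay nearest to Trak2 (distance 0.21), Ptafr and H2-Ab1, each higher in Lin+ than in the other fractions. Gpx1 lay nearest to Gys1 (0.06), Unc93b1 and Smok3b, and Prdx2 to Nptn (0.13), Herpud1 and Cdk2ap2. Sod1 lay nearest to Polr1d (0.02), Rpl8 and Myadml2, Sod2 to Pyroxd2 (0.08), Tex261 and Fxyd1, Prdx1 to Dusp7 (0.02), Ccdc22 and Mipep, and Txnrd1 to Phax (0.05), Atp13a2 and Ccdc28b. The neighbours of Gpx3 depended on its dim ST-HSC value: as measured they were the erythropoietin receptor gene Epor (0.60), Blvrb and Klf1, and with ST-HSC set to the background floor they were Zdhhc14 (0.26), Rgcc and Hebp1.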

How the data were processed

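Total RNA from 4 sorted marrow fractions was hybridised to 1 one-colour array each, as the labels' protocols state. Per the file headers, the deposited intensities are background-corrected processed signals of Agilent Feature Extraction, version 10.7.1.1 per the submitters' processing notes. The authors' deposited value table holds the ratio of each processed signal to a constant for its array, close to the 75th percentile, as setting it against the scanner values showed: 55246 of 55246 single-spot probes matched within 1%. Its columns had medians of 0.0619, 0.0630, 0.0704 and 0.0738 from LT-HSC to Lin+. The array was designed on mm9, per the file headers.

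Here log2 intensity minus the 75th percentile was computed with Python 3.11.15, and 3 of 55681 probes were dropped because every spot was an outlier on some array. Probe accessions were named through RefSeq (GRCm38.p6), which named 26762 probes (48.1%) and 20284 genes. The brightest probe stood for a gene. Calls needed 2-fold, and a dim side was raised to the array's lowest well-above-background level where it lay below it. The calling step was run on simulated data with spot error alone and with genes far above the floor. That run cannot show how reliable the 2-fold calls are with 1 array per fraction. The 10 members and all lists were chosen with earlier results of these data known. All members are described, as are up to 4 called genes of largest difference per list, the 3 nearest profiles of the 8 members spanning at least 2-fold, and a few further list genes (Txn1, Txnrd2, Nfe2l2, Hmox2, Fth1, Ftl1, Sod3, Gpx5 and Gpx6) chosen for their role after values were seen. Settings tried were 11, among them normexp (limma 3.58.1, offset 50), run on the median signal because the files hold no mean signal. All 4 arrays lay on 1 slide and share 1 scan time, per the file headers.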

Additional observations from a re-analysis of the deposited data

How the results depend on the processing

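The 4 members higher in Lin+ than in LT-HSC, and Hmox1 in Lin+ against progenitors, kept their calls in all 11 settings. Of 438 differences of members under the alternatives, 289 moved by less than the spot error and 149 by more, and no called difference changed sign. Members higher in progenitors than in ST-HSC numbered 2, and 1 under median scaling, the percentile of probes detected on all arrays, quantile normalization, spike-in scaling, the median gene at 0, normexp, a filter on both arrays and a span correction, which sets each gene against the median of genes of like genomic length. Members higher in Lin+ than in progenitors numbered 1, but 3 under the detected-probe percentile, quantile normalization, the median gene at 0 and the span correction, 4 under spike-in scaling and 2 under normexp. Members lower there numbered 3, but 0 under the detected-probe percentile, quantile normalization, spike-in scaling and the median gene at 0, 1 under the span correction, 2 under normexp and 4 under median scaling. Txnrd1 made 1 member lower in Lin+ than in LT-HSC under median scaling and quantile normalization, against 0 otherwise, and Gpx3 made 1 lower in ST-HSC than in LT-HSC without the background filter and floor. Of all genes called, those called higher made up 39.2% in ST-HSC against LT-HSC (62.9% with spike-in scaling), 49.7% in progenitors against ST-HSC (13.8% with spike-in scaling, 33.1% with the median gene at 0, 29.7% by the detected-probe percentile, 36.7% with median scaling, 37.5% span-corrected and 38.9% quantile-normalized), 35.4% in Lin+ against progenitors (71.0% with spike-in scaling, 60.2% with the median gene at 0, 58.5% by the detected-probe percentile, 55.7% span-corrected and 45.6% quantile-normalized) and 41.0% in Lin+ against LT-HSC (55.2% with spike-in scaling, 51.2% with the median gene at 0 and 30.7% with median scaling). The gene set to 0, the median of genes well above background on both sides, stood at 0.03, 0.21, -0.42 and -0.21 in these comparisons, a different median from the one over all genes compared, bounds included, given beside the members. Apart from what each scaling shifts by construction, the cause was not tested. No paired analysis was possible because every fraction has 1 array and all carry the same replicate number. Signal over background limits Gpx3 in the stem cell fractions and the dimmer Hmox1 probe.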
